A study of Homo sapiens with 10 samples.

Results

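Lysosomes are the acidic organelles in which peptidases, glycosidases and sulfatases break down material delivered by endocytosis and by autophagy. In autophagy, the ULK kinase complex and the class III PI3 kinase complex start a membrane that grows with the help of ATG9, ATG2 and WIPI proteins, is decorated with ATG8 proteins such as LC3B, and finally fuses with the lysosome. Many of these genes share a promoter element to which the MiT/TFE transcription factors (TFEB, TFE3 and MITF) bind. The genes described here are 51 such genes, given as a list of names, among the 23089 genes of a count table. The list was chosen with earlier results of these data known, which limits its comparison with all genes. They comprise 5 lysosomal membrane proteins, 10 lysosomal peptidases, 11 glycosidases, sulfatases and the saposin precursor, the 3 MiT/TFE factors and 22 autophagy genes. All 51 passed the filter on low counts in the comparisons with the 4 controls and between depletions, and CTSS did not pass in that of siH2A.Z1 with siCtrl 4 alone.

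The data were RNA-seq libraries of U2OS, a human osteosarcoma cell line, made from total RNA after removal of ribosomal RNA, 3 days after siRNA transfection. There were 5 conditions with 2 libraries each: a control siRNA numbered 3 (siCtrl 3), another control siRNA numbered 4 (siCtrl 4), an siRNA against H2A.Z.1 (siH2A.Z1), an siRNA against H2A.Z.2 (siH2A.Z2), and siH2A.Z1 together with siH2A.Z2. Both targets are isoforms of the histone variant H2A.Z, and the question was which genes depend on either. Each isoform was targeted by 1 siRNA sequence. The labels do not say whether the 2 libraries of a condition came from separate cultures, so the p-values measure the spread between these libraries only. Unless siCtrl 3 and siCtrl 4 were fitted apart, the control siRNAs formed 1 group, so that spread includes the gap between them. Both siRNAs are shown here because all the comparisons turn on them, as the listed strand from 5′ to 3′, with the bases that pair with positions 2 to 8 of the guide (the seed) in capitals.
H2A.Z.1 siRNA: guaguggguuuUGAUUGAg
H2A.Z.2 siRNA: ggugacaguugUGUGUUGa

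The depth of the libraries ran from 16716990 to 26946836 counts, of which the 51 genes held 0.497% to 0.612%, with the highest shares in the siCtrl 4 libraries. Levels are given as CPM, in which counts were divided by the TMM-corrected size of the library, so they measure a gene's share of the RNA, and fewer cells with a transcript cannot be told apart from less of it per cell. H2AFZ, the gene of H2A.Z.1, was at 279 and 277 CPM with siCtrl 3, 204 and 226 with siCtrl 4, 19.6 and 19.1 with siH2A.Z1, 241 and 261 with siH2A.Z2 and 22.5 and 22.1 with both siRNAs. H2AFV, the gene of H2A.Z.2, was at 248 and 239 CPM with siCtrl 3, 143 and 147 with siCtrl 4, 200.2 and 183 with siH2A.Z1, 63.8 and 65.5 with siH2A.Z2 and 80.4 and 71.1 with both siRNAs. Each target was lowest where its siRNA was used, and for H2AFV with siH2A.Z2, given the gap between the control siRNAs, the adjusted p was 0.0754 at a log2 fold change of -1.59. The mesenchymal markers VIM, SPARC, COL1A1 and FN1 were at 373 CPM or more in every library, RUNX2 was at 10.8 to 22.8 CPM and COL1A2 was below RUNX2 in every library. The epithelial, blood and endothelial markers EPCAM, CDH1, PTPRC, CD14, PECAM1 and CDH5 were at most at 3.99 CPM, and HBB had no row. Some of these markers moved with the list: upon H2A.Z.1 depletion VIM (-0.94) and COL1A1 (-0.72) of the 6 mesenchymal markers, CDH1 (-2.84) and PECAM1 (-2.58) fell and CD14 (3.13) rose on the log2 scale, and upon combined depletion CDH1 (-2.20) and PECAM1 (-1.88) fell, by the test used for the list. The summed CPM of the mesenchymal markers was 5759 to 7982 in the controls, 4727 to 4733 with siH2A.Z1, 6425 to 7037 with siH2A.Z2 and 5909 to 5962 with both siRNAs. That of the epithelial pair was 4.41 to 6.88, 2.23 to 2.99, 4.10 to 4.85 and 1.84 to 2.64, that of the endothelial pair 0.938 to 2.22, 0.160 to 0.427, 0.682 to 1.04 and 0.537 to 0.632, in the same order. That of CD14 and PTPRC was 0.156 to 0.812 in the controls, 1.42 to 1.49 with siH2A.Z1, 0.704 to 0.910 with siH2A.Z2 and at most 1.61 with both siRNAs. CD14 was at 0 in siCtrl 4 replicate 2 and PECAM1 in siH2A.Z1 replicate 1, and the part of these changes in the results was not tested.

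Levels can be compared between genes only per length, here as CPM per kilobase of annotated exons in the 4 control libraries. The length joins the GENCODE exons of all transcripts of a gene and can exceed that of its main RNA (24849 bases for CTSC). The authors counted reads on RefSeq genes, so the order given here is approximate. PSAP, the precursor of the saposins that help enzymes degrade sphingolipids, stood highest at 426 ± 41.6 CPM per kilobase (SD, n = 4), far above SQSTM1 at 47.5 ± 1.87 and LAMP1 at 47.3 ± 2.47, the next in order, which did not differ beyond their spread. GABARAP (44.5 ± 0.905) and CTSB (39.2 ± 22.8) followed. CTSS and CTSH, cathepsins best known from immune and lung cells, were lowest at 0.0758 ± 0.0375 and 0.138 ± 0.0296 CPM per kilobase. Among the transcription factors TFE3 was highest at 33.7 ± 2.22, ahead of MITF at 2.73 ± 1.36 and TFEB at 0.667 ± 0.0938 CPM per kilobase.

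Upon H2A.Z.1 depletion 4 of the 51 genes rose and 14 fell against the 4 control libraries. A gene was called at a Benjamini-Hochberg adjusted p under 0.05 in edgeR's quasi-likelihood test and a change of more than 25% (a fall being counted as the inverse of a rise). These 18 genes are 35.3% of the list, where 28% of all 16112 genes tested were called, with 12.2% higher and 15.7% lower. The falls were in cathepsins and other peptidases (CTSA, CTSC, CTSD, CTSL and TPP1), in the glycosidases NEU1 and MANBA, in the membrane protein SCARB2, and in the autophagy genes ATG5, ATG9B, BECN1, GABARAPL1, MAP1LC3B and SQSTM1. The rises were in LAMP1, ULK2, GUSB and HEXA. The median log2 fold change over the list was -0.13, against -0.02 over all genes tested. Without regard to sign the median was 0.31 over the list and 0.39 over all genes. The larger share of calls thus did not go with larger changes.

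**Figure D1:**
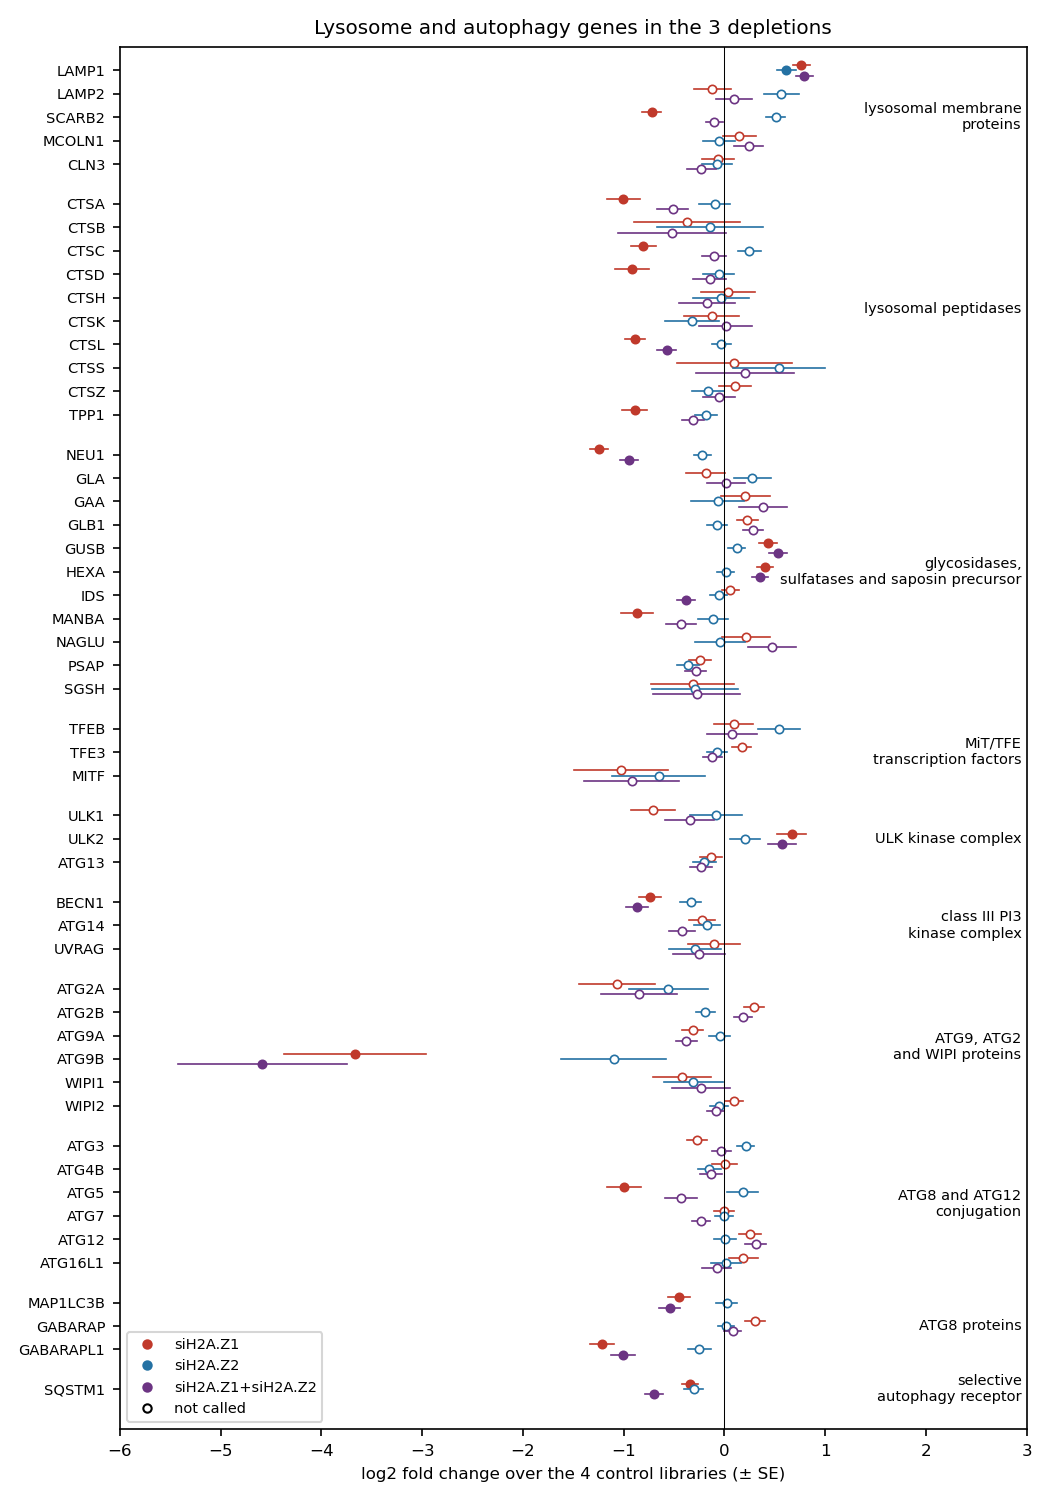
The log2 fold change over the 4 control libraries (x axis, with bars of 1 standard error) of each of the 51 genes, grouped by role, with siH2A.Z1 in red, siH2A.Z2 in blue and both siRNAs in purple. Filled points are called and open points are not; ATG9B lies farthest to the left at -3.67 and -4.59, and LAMP1 is filled in all 3 depletions.

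Of the lysosomal membrane proteins, LAMP1, a heavily glycosylated protein that coats the inner face of the lysosomal membrane, rose. LAMP1 was at 265 and 268 CPM with siCtrl 3, 293 and 261 with siCtrl 4, 444 and 480.2 with siH2A.Z1, 442 and 387 with siH2A.Z2 and 459 and 476 with both siRNAs. All 6 depleted libraries lay above all 4 control libraries. The gene lies in the plus direction on chromosome 13, 113297239 to 113323672 (hg38, GENCODE annotation). Its log2 fold change upon H2A.Z.1 depletion, given here and below for each gene ± its standard error, was 0.76 ± 0.09 (adjusted p = 0.00166). SCARB2 (LIMP-2), which carries glucocerebrosidase to the lysosome, fell from 122 ± 4.98 CPM (SD, n = 4) in the controls to 74.3 ± 5.12 (SD, n = 2), a log2 fold change of -0.72 ± 0.10 (adjusted p = 0.00293). LAMP2, the close relative of LAMP1, was not called. LAMP2 was at 127 and 128 CPM with siCtrl 3, 88.4 and 95.4 with siCtrl 4, 98.2 and 105 with siH2A.Z1, 160.3 and 164 with siH2A.Z2 and 117 and 116 with both siRNAs. The siH2A.Z1 libraries lay between the libraries of the 2 control siRNAs. The channel MCOLN1 and the membrane protein CLN3 had log2 fold changes of 0.15 and -0.06 and were not called either, with some reads of MCOLN1 uncertain because PNPLA6 overlaps it on the same strand.

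Of the 10 peptidases, 5 fell and none rose, and the median log2 fold change of this group was -0.59, where 15.7% of all genes tested fell, 12.2% rose and the median was -0.02. CTSA, the protective protein that keeps NEU1 stable in the lysosome, fell most. CTSA was at 101 and 112 CPM with siCtrl 3, 144 and 128 with siCtrl 4, 54.9 and 66.2 with siH2A.Z1, 111 and 115 with siH2A.Z2 and 83.2 and 85.3 with both siRNAs. The siH2A.Z1 libraries lay below all others, and the log2 fold change was -1.01 ± 0.16 (adjusted p = 0.00626). CTSD, the main aspartic protease of the lysosome, gave -0.92 ± 0.17 (adjusted p = 0.00961). CTSD was at 113 and 103 CPM with siCtrl 3, 142 and 115 with siCtrl 4, 71.2 and 54.2 with siH2A.Z1, 126 and 102 with siH2A.Z2 and 91.6 and 121 with both siRNAs. The siH2A.Z1 libraries were again the 2 lowest of the 10. CTSL, a cysteine protease, gave -0.89 ± 0.10 (adjusted p = 0.00177). CTSL was at 43.7 and 41.4 CPM with siCtrl 3, 45.5 and 41.8 with siCtrl 4, 23.9 and 22.9 with siH2A.Z1, 41.3 and 43.1 with siH2A.Z2 and 29.6 and 28.0 with both siRNAs. Here the libraries with both siRNAs stood between those with siH2A.Z1 and all others. TPP1, a tripeptidyl peptidase, was at 143 ± 13.2 CPM (SD, n = 4) in the controls and 77.4 ± 10.1 (SD, n = 2) with siH2A.Z1, and CTSC, which activates other proteases, at 117 ± 12.4 and 67.4 ± 2.67 CPM. CTSB, CTSH, CTSK, CTSS and CTSZ had log2 fold changes from -0.37 (CTSB) to 0.11 (CTSZ), none called.

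The glycosidases and sulfatases moved in both directions, with 2 of 11 higher, 2 lower and a median log2 fold change of 0.06, close to the shares of 12.2% and 15.7% over all genes. NEU1, the lysosomal sialidase, showed the second largest fall of the whole list, at -1.24 ± 0.09 (adjusted p = 0.00053). NEU1 was at 85.4 and 85.5 CPM with siCtrl 3, 84.1 and 79.7 with siCtrl 4, 35.8 and 35.0 with siH2A.Z1, 71.8 and 71.7 with siH2A.Z2 and 43.2 and 43.1 with both siRNAs. All libraries with siH2A.Z1, alone or combined, were at most at 43.2 CPM and all others at 71.7 CPM or more. NEU1 lies in the minus direction on chromosome 6, 31857659 to 31862905 (hg38). MANBA, which cleaves mannose from glycoproteins, fell by 0.87 on the log2 scale (adjusted p = 0.00846). In contrast, GUSB, the lysosomal beta-glucuronidase, gave 0.43 ± 0.09 (adjusted p = 0.0128). GUSB was at 59.4 and 56.8 CPM with siCtrl 3, 62.4 and 59.6 with siCtrl 4, 82.3 and 78.7 with siH2A.Z1, 64.3 and 65.4 with siH2A.Z2 and 89.0 and 81.6 with both siRNAs. HEXA, the alpha subunit of hexosaminidase, gave 0.40 ± 0.08 (adjusted p = 0.0136). HEXA was at 151 and 151 CPM with siCtrl 3, 164 and 156 with siCtrl 4, 199.9 and 213 with siH2A.Z1, 164 and 149.7 with siH2A.Z2 and 194 and 202 with both siRNAs. For both genes the siH2A.Z1 libraries lay above the 4 control libraries and above the siH2A.Z2 libraries. GUSB and IDS have pseudogene copies and GLB1 overlaps TMPPE on the same strand, so that their counts are less certain. GLA, GAA, GLB1, IDS, NAGLU, PSAP and SGSH were not called, with log2 fold changes from -0.31 (SGSH) to 0.23 (GLB1).

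None of the 3 MiT/TFE factors was called in any depletion. TFEB, the best known regulator of lysosomal genes, was weakly expressed. TFEB was at 5.0 and 3.57 CPM with siCtrl 3, 4.77 and 4.60 with siCtrl 4, 4.59 and 5.03 with siH2A.Z1, 7.54 and 5.53 with siH2A.Z2 and 3.62 and 5.80 with both siRNAs. Both siH2A.Z2 libraries lay above the 4 controls without passing the test, and the other depletions overlapped the controls. TFE3 had the highest level per length of the 3. TFE3 was at 137 and 133 CPM with siCtrl 3, 155 and 142 with siCtrl 4, 158 and 162 with siH2A.Z1, 141 and 128 with siH2A.Z2 and 126 and 133 with both siRNAs. Its log2 fold change upon H2A.Z.1 depletion was 0.17 (adjusted p = 0.202). MITF differed between the control siRNAs. MITF was at 11.5 and 11.6 CPM with siCtrl 3, 27.7 and 30.3 with siCtrl 4, 9.39 and 10.5 with siH2A.Z1, 13.1 and 12.7 with siH2A.Z2 and 10.5 and 10.8 with both siRNAs. The siH2A.Z1 libraries lay just below the siCtrl 3 libraries and far below those with siCtrl 4, and the log2 fold change against the 4 controls was -1.03 ± 0.47 (adjusted p = 0.142).

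Among the genes that start autophagy, ULK2, a kinase of the initiating complex, rose and BECN1, the scaffold of the class III PI3 kinase complex, fell. ULK2 was at 5.55 and 6.55 CPM with siCtrl 3, 6.37 and 6.34 with siCtrl 4, 9.45 and 10.3 with siH2A.Z1, 6.71 and 7.58 with siH2A.Z2 and 9.26 and 9.07 with both siRNAs. BECN1 was at 72.0 and 68.8 CPM with siCtrl 3, 62.9 and 61.2 with siCtrl 4, 38.9 and 40.7 with siH2A.Z1, 52.6 and 52.4 with siH2A.Z2 and 36.3 and 35.9 with both siRNAs. The siH2A.Z1 and combined libraries lay above the controls for ULK2 and below them for BECN1, with log2 fold changes upon H2A.Z.1 depletion of 0.67 ± 0.14 (adjusted p = 0.0162) and -0.74 ± 0.11 (adjusted p = 0.00482). ULK1, the other kinase, had a log2 fold change of -0.71 ± 0.22 (adjusted p = 0.052) and was not called. ATG13, ATG14 and UVRAG lay between -0.22 and -0.10 and were not called.

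ATG9B, a scramblase of the ATG9 family, had the largest fall of the list and few counts. ATG9B was at 3.71 and 3.79 CPM with siCtrl 3, 1.34 and 1.58 with siCtrl 4, 0.160 and 0.237 with siH2A.Z1, 1.28 and 1.14 with siH2A.Z2 and 0.0447 and 0.172 with both siRNAs. The 4 control libraries held 234 counts in all and the 2 siH2A.Z1 libraries 8, a normalized ratio of 12.8 (95% counting interval 6.37 to 29.9), and the siCtrl 3 libraries stood above those with siCtrl 4. The fitted log2 fold change was -3.67 ± 0.70 (adjusted p = 0.0107). The paralog ATG9A, at 88.4 ± 6.76 CPM in the controls (SD, n = 4), was not called (-0.32 ± 0.10, adjusted p = 0.0609). The lipid transfer protein ATG2A, also split between the control siRNAs, gave -1.07 ± 0.38 (adjusted p = 0.0745), and ATG2B, WIPI1 and WIPI2 were not called.

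In the conjugation of ATG8 and ATG12, ATG5, the protein to which ATG12 is joined, was the 1 of 6 genes that fell, at -0.99 ± 0.17 (adjusted p = 0.00724). ATG5 was at 32.2 and 39.0 CPM with siCtrl 3, 38.8 and 47.1 with siCtrl 4, 20.5 and 19 with siH2A.Z1, 42.7 and 46.4 with siH2A.Z2 and 29.2 and 28.7 with both siRNAs. The siH2A.Z1 libraries were the 2 lowest and the siH2A.Z2 libraries lay within the range of the controls. The other genes, ATG12 (0.25), ATG16L1 (0.19), ATG3 (-0.27), ATG7 (-0.01) and ATG4B (0.00), were not called. Of the ATG8 proteins themselves, GABARAPL1 and MAP1LC3B (LC3B) fell while GABARAP was at 0.31 ± 0.10 (adjusted p = 0.0612), not called. GABARAPL1 was at 55.3 and 55.8 CPM with siCtrl 3, 64.5 and 65.6 with siCtrl 4, 25 and 27.1 with siH2A.Z1, 51.6 and 49.8 with siH2A.Z2 and 30.1 and 29.5 with both siRNAs. MAP1LC3B was at 104 and 107 CPM with siCtrl 3, 112 and 124 with siCtrl 4, 77.8 and 86.2 with siH2A.Z1, 108 and 119 with siH2A.Z2 and 78.3 and 74.3 with both siRNAs. For both genes every library with siH2A.Z1, alone or combined, lay below every library without it. The log2 fold changes upon H2A.Z.1 depletion were -1.22 ± 0.12 (adjusted p = 0.00112) and -0.45 ± 0.11 (adjusted p = 0.0238). GABARAPL3 and MAP1LC3B2, the near-identical copies of these genes, had at most 5 and 29 counts per library. SQSTM1 (p62), a receptor that ties ubiquitinated cargo to ATG8 proteins, gave -0.34 ± 0.08 (adjusted p = 0.0244). SQSTM1 was at 365 and 357 CPM with siCtrl 3, 371 and 338 with siCtrl 4, 279.8 and 286 with siH2A.Z1, 308 and 271 with siH2A.Z2 and 209 and 228 with both siRNAs. The lowest levels were with both siRNAs.

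**Figure D2:**
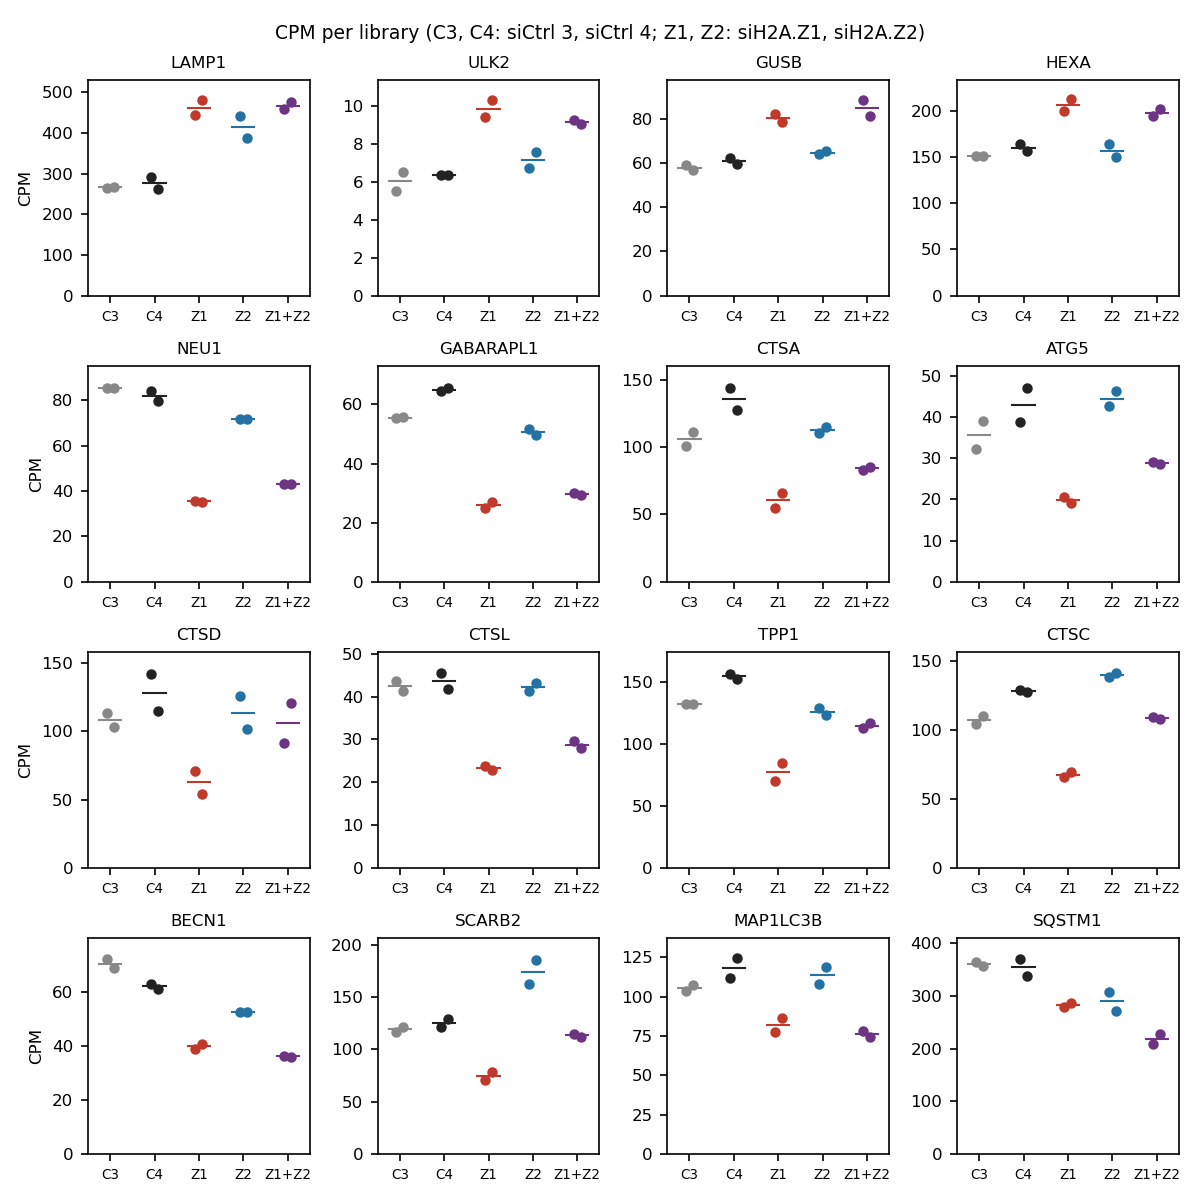
CPM per library (points, y axis from 0) and the mean of each condition (lines) for 16 genes called in at least 1 depletion, with siCtrl 3 (C3), siCtrl 4 (C4), siH2A.Z1 (Z1), siH2A.Z2 (Z2) and both siRNAs (Z1+Z2) on the x axis. NEU1, GABARAPL1 and CTSL are low wherever siH2A.Z1 was used, whereas CTSD, CTSC, SCARB2 and TPP1 are lowest with siH2A.Z1 alone and nearer to the controls with both siRNAs.

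Each of the 6 libraries of the H2A.Z.1 comparison was left out in turn. Where this left 1 library in a group, here and below, a lost call may also reflect the smaller number of libraries. LAMP1, SCARB2, CTSL, NEU1 and GABARAPL1 were called whichever of the 6 libraries was left out. Without siH2A.Z1 replicate 1, 12 of the 18 calls were lost (adjusted p 0.0542 to 0.185), and without siH2A.Z1 replicate 2 also 12 (0.0546 to 0.17), CTSD remaining in the former and TPP1 in the latter. SQSTM1 was also lost without either siCtrl 3 library (0.0619 and 0.0545). In all, 30 of the 51 genes did not overlap between the siH2A.Z1 and control libraries, 9 above and 21 below (58.8%), where 54.4% of all genes tested did not overlap.

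The control siRNAs themselves differed in these genes. With siCtrl 4 against siCtrl 3, 11 of the 51 genes were higher and 3 lower, where 34.5% of all genes tested were called, 17.2% higher and 17.3% lower. CTSB, an abundant cysteine cathepsin, was 211 and 198 CPM with siCtrl 3 and 633 and 607 with siCtrl 4, a log2 difference of 1.60 ± 0.07 (adjusted p = 2.92e-08). The depleted libraries lay between these, at 309 and 329.6 CPM with siH2A.Z1, 379 and 367 with siH2A.Z2 and 287 and 282 with both siRNAs. For MITF the difference was 1.33, for the sulfatase SGSH 1.21, for ATG2A 0.99, for WIPI1 0.82 and for UVRAG 0.73. CTSK (0.66), NAGLU (0.63), CTSZ (0.38), CTSA (0.35) and ATG16L1 (0.34) were higher too. ATG9B (-1.36), GLA (-0.48) and LAMP2 (-0.47) were lower with siCtrl 4. The calls of ATG16L1, CTSA and CTSZ did not hold without siCtrl 4 replicate 1, nor those of ATG16L1 and CTSA without siCtrl 3 replicate 1, nor those of ATG16L1 and CTSZ without siCtrl 3 replicate 2, and the other 11 held without each library.

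The median of the list depended on the control siRNA. Upon H2A.Z.1 depletion it was 0.04 against siCtrl 3 alone and -0.29 against siCtrl 4 alone, and 29 genes (10 higher, 19 lower) or 26 genes (4 higher, 22 lower) were called, of 51 and 50 tested, where 47.8% and 53% of all genes were. Of the 18 genes called against both control siRNAs together, 17 were also called against each alone in the same direction, the exception being SQSTM1. These fits reuse the libraries that gave the 18 calls, so they are not a separate test of them. The share of all called genes that held in this way is not given. NEU1 gave log2 fold changes of -1.27 and -1.21, GABARAPL1 -1.09 and -1.32, CTSL -0.87 and -0.90, and LAMP1 0.79 and 0.74, against siCtrl 3 and siCtrl 4 respectively.

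**Figure D3:**
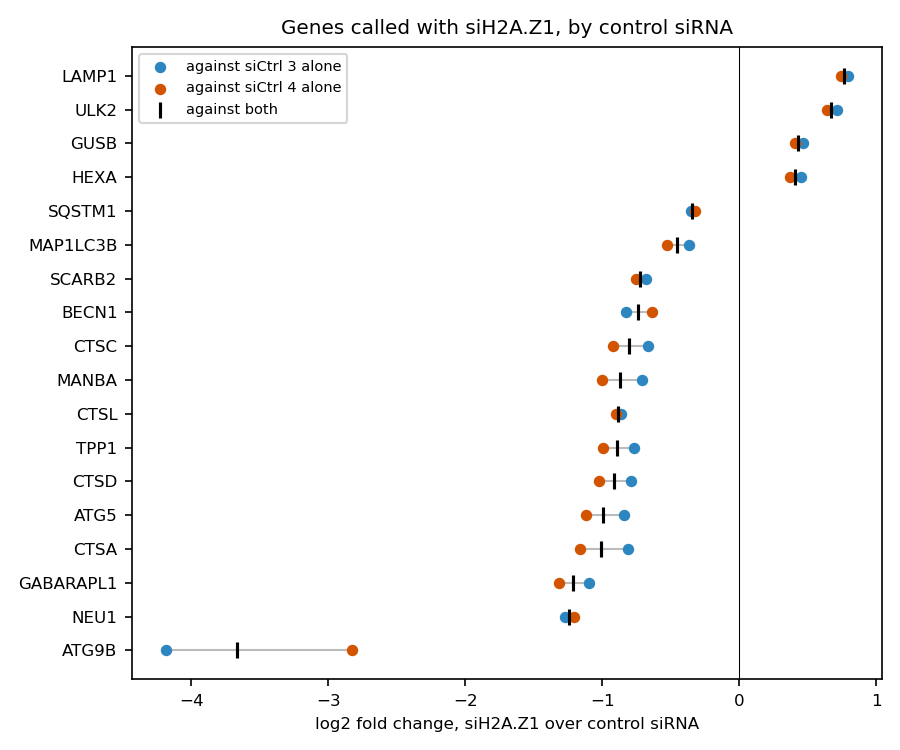
The log2 fold change (x axis) of the 18 genes called upon H2A.Z.1 depletion, against the siCtrl 3 libraries alone (blue), the siCtrl 4 libraries alone (orange) and all 4 control libraries (black bar). All points of a gene lie on the same side of 0, with the widest gap for ATG9B (-4.18 and -2.82).

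Promoters of the list were searched for the core of the element bound by MiT/TFE factors. Many lysosome and autophagy genes are known to share this element, so its share in the list is not a finding of these data. RefSeq promoters (GRCh38.p14, 250 bases before to 50 after the start site) were at hand for 41 of the 51 genes. The core TCACGTG, or CACGTGA on the other strand, was found in LAMP1, MCOLN1, CLN3, CTSA, CTSD, NEU1, GAA, ATG14 and ATG3, 9 of these 41 genes, where 4.49% of all 27305 genes with a promoter hold it (3.71% of 35116 promoters). It contains the shorter CACGTG, found in the same 9 genes and in 8.77% of all genes (7.26% of promoters). The stretches of the 4 genes called upon H2A.Z.1 depletion are printed in the direction of the gene around the motif, which is in capitals (overlapping matches on both strands read TCACGTGA). LAMP1 had 6 such sites, CTSA 2, and NEU1 and CTSD 1 each. They run over chr13:113297031-113297259 (plus strand) for LAMP1, chr6:31862927-31862963 (minus strand) for NEU1, chr11:1763953-1763989 (minus strand) for CTSD and chr20:45891277-45891331 (plus strand) for CTSA.
LAMP1: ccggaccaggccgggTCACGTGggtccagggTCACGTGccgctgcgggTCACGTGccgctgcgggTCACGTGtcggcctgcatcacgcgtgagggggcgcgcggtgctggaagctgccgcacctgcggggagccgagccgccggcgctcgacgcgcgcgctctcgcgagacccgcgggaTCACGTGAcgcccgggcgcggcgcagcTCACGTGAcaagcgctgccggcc
NEU1: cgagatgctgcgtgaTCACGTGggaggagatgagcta
CTSD: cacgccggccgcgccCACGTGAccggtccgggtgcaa
CTSA: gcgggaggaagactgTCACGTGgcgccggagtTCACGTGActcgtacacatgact

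LAMP1, with the most sites of the 4, rose while NEU1, CTSD and CTSA fell, and MCOLN1, CLN3, GAA, ATG14 and ATG3 were not called, at log2 fold changes of 0.15, -0.06, 0.21, -0.22 and -0.27. The match is a description of these letters, and binding was not tested. Matches to the seeds of the siRNAs were likewise looked up in annotated 3′UTRs. The 7 bases in capitals in the H2A.Z.1 siRNA occur in 9 of the 51 genes (LAMP2, CTSC, TPP1, TFEB, ATG13, ATG14, ATG2B, WIPI2 and SQSTM1), where 12.4% of all 16507 genes with a 3′UTR have them, and 3 of the 14 genes that fell are among these (CTSC, TPP1 and SQSTM1). Those of the H2A.Z.2 siRNA occur in 7 genes (LAMP2, CTSK, HEXA, ULK1, ATG2B, MAP1LC3B and GABARAP), against 20.5% of all genes.

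Upon H2A.Z.2 depletion, LAMP1 was the 1 gene of the 51 called, at 0.61 ± 0.09 (adjusted p = 0.0499), where 0.785% of all genes tested were called, 0.605% higher and 0.179% lower. This call was lost whichever of the 6 libraries was left out, with adjusted p from 0.082 (without siCtrl 4 replicate 1) to 0.551 (without siH2A.Z2 replicate 1), and also with the replicate number as a block (0.118), although both siH2A.Z2 libraries lay above all 4 controls. SCARB2, LAMP2 and TFEB had log2 fold changes of 0.51, 0.57 and 0.54 that did not pass the test (adjusted p = 0.0765, 0.235 and 0.333). The siH2A.Z2 libraries held the 2 highest SCARB2 levels of the 10, 162 and 185 CPM. In all, 9 of the 51 genes had an unadjusted p under 0.05, as had 2223 of all 16188 genes tested. DESeq2 called 3 of the 51, for which no share over all genes is given. There were 18 genes (35.3%) whose siH2A.Z2 and control libraries did not overlap, 9 above and 9 below, against 28.7% of all genes. The median of the list was -0.07 against 0.00 over all genes, and 0.04 and -0.17 against siCtrl 3 and siCtrl 4 alone. The 4 control libraries are shared by all 3 comparisons with controls, so that their values are given side by side and were not tested for likeness.

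Upon combined depletion 4 genes rose and 8 fell, 12 of 51 (23.5%), where 17.1% of all genes tested were called, 7.77% higher and 9.35% lower. LAMP1 (0.79), ULK2 (0.58), GUSB (0.53) and HEXA (0.36) rose on the log2 scale. ATG9B (-4.59), GABARAPL1 (-1.01), NEU1 (-0.94), BECN1 (-0.86), SQSTM1 (-0.70), CTSL (-0.57), MAP1LC3B (-0.54) and IDS (-0.38) fell, with adjusted p from 0.00234 (NEU1) to 0.0312 (IDS). For ATG9B the 2 combined libraries held 4 counts, a ratio of controls to depleted of 25.5 (95% counting interval 9.83 to 94.4). IDS, a sulfatase that degrades heparan and dermatan sulfate, was 236 and 214 CPM with both siRNAs and 277 to 312 CPM in all other libraries. All 12 calls were lost without combined replicate 1 (adjusted p 0.0623 to 0.232) or replicate 2 (0.0538 to 0.243), and those of IDS and ULK2 also without any 1 of the control libraries, as was that of HEXA except without siCtrl 4 replicate 1 (0.0517 to 0.0737). A fit blocked on the replicate number left 8 of the 12 calls, without HEXA, IDS, MAP1LC3B and ULK2 (0.0539 to 0.0861). There were 30 genes of the 51 that did not overlap between the combined and control libraries (58.8%), 7 above and 23 below, against 49% of all genes. The median log2 fold change without regard to sign was 0.29 over the list and 0.32 over all genes. All 12 were called against each control siRNA alone, where 38.7% (siCtrl 3) and 48% (siCtrl 4) of all genes were called. The libraries are those that gave the 12 calls, so this is not a separate test.

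Compared directly, siH2A.Z1 and siH2A.Z2 libraries differed in 18 of the 51 genes (35.3%), 3 higher and 15 lower with siH2A.Z1, where 32.2% of all genes tested were called, 13.9% higher and 18.4% lower. The median log2 difference without regard to sign was 0.31 over the list and 0.43 over all genes. This comparison uses no control library for its difference, though the spread of its fit includes the gap between the control siRNAs. SCARB2 stood out among the membrane proteins at -1.23 ± 0.10 (adjusted p = 4.51e-05), followed by LAMP2 at -0.68 ± 0.18 (adjusted p = 0.0169). The same 5 peptidases that were called against the controls were lower with siH2A.Z1: CTSC (-1.05), CTSA (-0.90), CTSD (-0.86), CTSL (-0.85) and TPP1 (-0.70). NEU1 gave -1.02 ± 0.08 (adjusted p = 4.56e-05) and MANBA -0.75. Of the autophagy genes ATG9B (-2.56), ATG5 (-1.17), GABARAPL1 (-0.96), ATG3 (-0.48), MAP1LC3B (-0.47) and BECN1 (-0.40) were lower. ATG2B (0.49), ULK2 (0.47) and HEXA (0.40) were higher with siH2A.Z1. LAMP1, at 0.16 ± 0.10 (adjusted p = 0.257), was not shown to differ between the 2 depletions, nor was SQSTM1 at -0.03 ± 0.09 (adjusted p = 0.822).

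In this comparison ATG5, CTSA, CTSC, CTSL, GABARAPL1, NEU1, SCARB2 and TPP1 were called whichever of the 4 libraries was left out. ATG9B, BECN1, LAMP2 and ULK2 were lost without any 1 of them. CTSD was lost without siH2A.Z1 replicate 2 or siH2A.Z2 replicate 1, ATG3 without siH2A.Z1 replicate 2 or siH2A.Z2 replicate 2, MAP1LC3B without siH2A.Z1 replicate 1 or siH2A.Z2 replicate 2, MANBA without siH2A.Z1 replicate 1, ATG2B without siH2A.Z2 replicate 1 and HEXA without siH2A.Z2 replicate 2. The adjusted p of all calls lost ran from 0.0504 to 0.221.

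**Figure D4:**
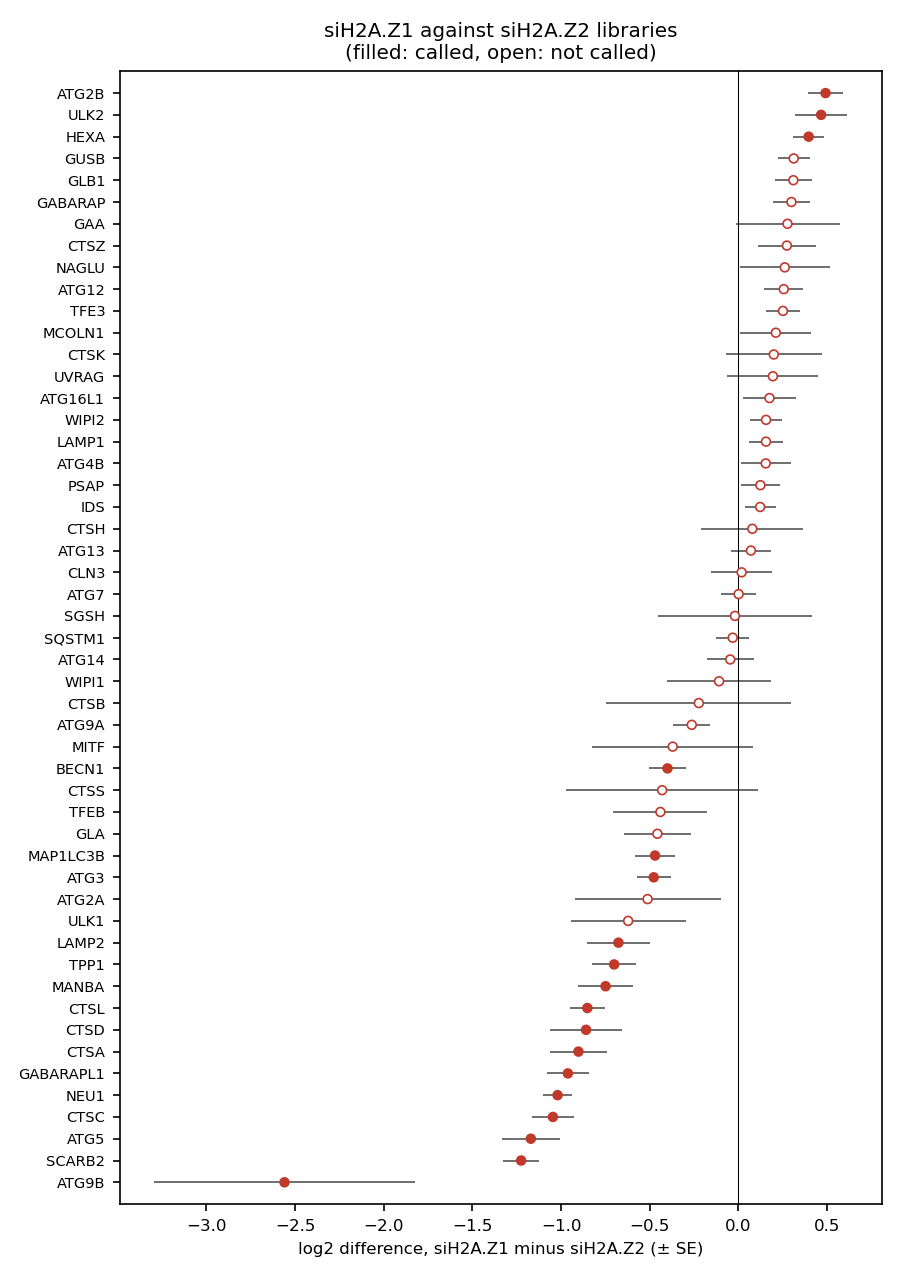
The log2 difference between the siH2A.Z1 and siH2A.Z2 libraries (x axis, with bars of 1 standard error) of all 51 genes, sorted, with filled points for the 18 genes called and open points for the others. The 15 filled points on the left run from ATG9B (-2.56) to BECN1 (-0.40), and the 3 on the right are HEXA, ULK2 and ATG2B.

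Adding siH2A.Z2 to siH2A.Z1 gave 4 calls, where 3.79% of all genes tested were called, 2.64% higher and 1.15% lower. CTSC (0.69 ± 0.12, adjusted p = 0.0169), SCARB2 (0.61 ± 0.10, adjusted p = 0.0144) and TPP1 (0.56 ± 0.12, adjusted p = 0.0413) were higher with both siRNAs than with siH2A.Z1 alone, and IDS was lower (-0.46 ± 0.09, adjusted p = 0.0253). CTSC was 65.5 and 69.3 CPM with siH2A.Z1 and 109 and 108 with both siRNAs, within the range of the controls (104 and 110.1 with siCtrl 3, 128 and 127 with siCtrl 4). SCARB2 was 70.7 and 78.0 CPM with siH2A.Z1 and 115 and 112 with both. None of the 4 calls was left without any 1 of the 4 libraries concerned (adjusted p 0.0878 to 0.26), and a fit blocked on the replicate number left 2, without IDS (0.0504) and TPP1 (0.0721). Adding siH2A.Z1 to siH2A.Z2 gave 13 calls, 3 higher (GUSB, ATG2B and HEXA) and 10 lower (ATG9B, GABARAPL1, NEU1, SCARB2, ATG5, MAP1LC3B, CTSL, BECN1, SQSTM1 and IDS), where 13.8% of all genes were called, 4.77% higher and 9.05% lower. NEU1 (-0.73 ± 0.08, adjusted p = 0.000829) and GABARAPL1 (-0.77 ± 0.12, adjusted p = 0.00314) were called whichever library was left out. Without siH2A.Z2 replicate 1 or 2 there were 5 and 2 calls, and without combined replicate 1 or 2 there were 2 and 3. In the blocked fit there were 11, without HEXA (0.0576) and IDS (0.0583). For siH2A.Z1 added to siH2A.Z2, the median log2 difference without regard to sign was 0.33 over the list and 0.29 over all genes. For siH2A.Z2 added to siH2A.Z1 it was 0.19 and 0.24. In the test of a non-additive effect, combined minus both single effects, edgeR called none of the 51 genes. Over all genes it called 0.14%, 0.0667% above and 0.0728% below additivity. An unadjusted p under 0.05 was found for 10 of the 51 and for 1641 of all 16486 genes tested. DESeq2 called 3 of the 51, for which no share over all genes is given.

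The wider lysosome and autophagy genes gave a setting for these values. Lists of 154 further genes, also chosen with earlier results of these data known, held 153 with a row in the table. Upon H2A.Z.1 depletion 15 of the 151 tested rose and 29 fell, 29.1% of them against 28% of all genes (12.2% higher, 15.7% lower), a share near that background. Without siH2A.Z1 replicate 1 or 2 the 44 calls came down to 11 and 8. Of 34 other acid hydrolases and their activators, 1 rose and 13 fell, with a median log2 fold change of -0.36. GM2A, the activator that presents gangliosides to hexosaminidase, gave -1.78 ± 0.11 (adjusted p = 0.000356), and the cathepsin CTSV -1.73 ± 0.30 (adjusted p = 0.00767). GM2A was 50.2 and 47.1 CPM with siCtrl 3, 50.8 and 53.1 with siCtrl 4, 14.8 and 14.6 with siH2A.Z1, 50.9 and 53.3 with siH2A.Z2 and 25.8 and 25.3 with both siRNAs, so that its 2 lowest libraries were those with siH2A.Z1 alone. SIAE, a sialic acid esterase, was the 1 hydrolase that rose (1.11 ± 0.13, adjusted p = 0.00193). SUMF1, which activates all sulfatases and was listed with the delivery genes although it delivers no enzyme, rose most of that list (1.41 ± 0.15, adjusted p = 0.00131). Among the regulators TP53INP2 fell (-1.76 ± 0.19, adjusted p = 0.00138) and FOXO1 rose (0.74 ± 0.17, adjusted p = 0.0178).

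The counts of the smaller lists stand beside the same 12.2% higher and 15.7% lower over all genes. Of the 17 subunits of the V-ATPase, the pump that acidifies the lysosome, 3 rose and 2 fell, and of 19 genes of mTORC1, Rag and Ragulator 3 rose and 2 fell. Of 20 further lysosomal membrane proteins and transporters 1 rose and 4 fell, and of 18 further genes of autophagosome formation 1 rose and none fell. Of 15 genes of fusion 1 rose and 2 fell, and of 13 further receptors none rose and 3 fell. Of the 10 genes of the delivery list, SUMF1 included, 3 rose and 2 fell, and of 5 further regulators 2 rose and 1 fell. Upon H2A.Z.2 depletion 1 of 152 further genes was called, LIPA, the lysosomal acid lipase (0.658% of the list against 0.785% of all genes), and this call was lost without siCtrl 4 replicate 2 or either siH2A.Z2 library. LIPA was at 67.6 and 72.6 CPM with siCtrl 3, 58.6 and 64.0 with siCtrl 4, 21.0 and 20.8 with siH2A.Z1, 14.9 and 17.5 with siH2A.Z2 and 10.0 and 9.70 with both siRNAs. All 6 depleted libraries lay below the 4 controls, lowest with both siRNAs. The 3′UTR of LIPA holds the 7 capital bases of the H2A.Z.2 siRNA 2 times, where 20.5% of all genes have any match. It holds those of the H2A.Z.1 siRNA not at all. LIPA was the only further gene looked up in this way, and an effect of these matches was not tested. Upon combined depletion 13 of 151 rose and 14 fell, 17.9% against 17.1% of all genes (7.77% higher, 9.35% lower). These 27 calls came down to 1 and 2 without combined replicate 1 and 2, and the blocked fit gave 14. The largest rises were in CTSO (1.41), LAMP3 (1.39) and SIAE (1.14), and the largest falls in LIPA (-2.72), GNPTAB, a subunit of the enzyme that makes the mannose 6-phosphate tag (-1.55), and TP53INP2 (-1.46). GNPTAB was 69.2 and 70.1 CPM with siCtrl 3, 30.6 and 34.7 with siCtrl 4 and 18.3 and 16.2 with both siRNAs.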

How the data were processed

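U2OS cells were transfected with siRNAs for 3 days, and ribosomal RNA-depleted stranded paired-end libraries were sequenced in 1 lane. Reads were mapped with STAR on hg38 by the authors, who deposited raw counts per gene from HTSeq 0.6.1. They also deposited tables of their own 3 comparisons made with DESeq2 1.22.1, which were not used. Here the counts were tested with edgeR 4.0.16 (R 4.3.3, TMM factors, filterByExpr, quasi-likelihood F test, Benjamini-Hochberg over all genes tested). The 4 control libraries served each depletion. The direct comparisons and the non-additive term came from 1 fit of the 10 libraries in 4 groups, and siCtrl 4 against siCtrl 3 from 1 fit in 5 groups. Standard errors are the log2 fold change over the root of F. Of 23089 genes in the table, 20230 were matched to GENCODE 44 for exon lengths. The 51 genes and the further lists were chosen with earlier results of these data known. All 51 could be named; values per library are given for the 6 genes with the largest rise and fall called in each depletion and for TFEB, TFE3, MITF, LAMP1, LAMP2, SQSTM1 and MAP1LC3B, and of the further lists the 3 largest called rises and falls are named. Levels of CTSB, SCARB2, TPP1, CTSC, IDS, ATG9A, GM2A, LIPA and GNPTAB were added after their values were seen. Alternatives were DESeq2 1.42.0, other scaling and filters, a fold of 1.5, a replicate block, single control siRNAs and each library left out. Scripts were tested on simulated data. Intervals on counts cover counting error only.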

Additional observations from a re-analysis of the deposited data

Results flagged for a closer look

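Among the 4 control libraries, ATG9A in siCtrl 4 replicate 2 stood apart at 78.4 CPM, where the other 3 lay between 91.0 and 91.1 CPM with siCtrl 3 and 93.3 CPM with siCtrl 4 replicate 1. With 51 genes tested in this way, 1 such case was found. Chance alone would give about 2.55 if the 4 control libraries were alike. They came from different control siRNAs that differed in many of these genes, so no conclusion is drawn from these numbers. Conditions of 2 libraries were not tested for libraries that stand apart.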

How the results depend on the processing

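No called gene changed direction under any setting, and the median of the list turned sign in both single depletions, with siCtrl 3 alone. Of the 18 genes called upon H2A.Z.1 depletion, 14 were called in all settings other than a library left out, as were 6 of the 12 upon combined depletion. The causes of the changes were not tested. Against siCtrl 3 and siCtrl 4 alone, 47.8% and 53% of all genes were called with siH2A.Z1. These shares were 14.2% and 29.6% with siH2A.Z2, and 38.7% and 48% with both siRNAs. The counts below for single control siRNAs in these 3 depletions are to be read beside them. For the other settings, and for the non-additive term with single control siRNAs, no share over all genes is given. For H2A.Z.1 depletion (18 of 51 genes), siCtrl 3 alone gave 29 and leaving out 1 library 6 to 19; of the further genes (44), a fold above 1.5 gave 26, siCtrl 3 alone 74, siCtrl 4 alone 76, 10 libraries in 5 groups 68 and leaving out 1 library 8 to 40. The median of the 51 genes (-0.13) was -0.0524 with upper-quartile scaling, -0.0335 with library size alone, 0.0409 and -0.29 with siCtrl 3 and siCtrl 4 alone and -0.22 to -0.10 without 1 library. For H2A.Z.2 depletion (1 gene), DESeq2 gave 3, RLE, upper-quartile and library size scaling, no filter and the replicate block each 0, siCtrl 3 alone 7, siCtrl 4 alone 14, genes called against each 3, 10 libraries in 4 and 5 groups 2 and 7, and leaving out 1 library 0. Of the further genes (1) these were DESeq2 10, siCtrl 3 alone 27, siCtrl 4 alone 57, against each 13, 4 and 5 groups 8 and 31, and 0 to 1 without 1 library. The median (-0.07) was 0.0427 and -0.17 with siCtrl 3 and siCtrl 4 alone and -0.15 to -0.00337 without 1 library. For combined depletion (12 genes), a fold above 1.5 gave 6, siCtrl 3 alone 19, siCtrl 4 alone 28, 5 groups 21 and leaving out 1 library 0 to 10; of the further genes (27), the replicate block gave 14, a fold above 1.5 17, siCtrl 3 alone 55, siCtrl 4 alone 78, 5 groups 56 and leaving out 1 library 1 to 25. The median (-0.17) was -0.098 with library size, -0.0674 and -0.27 with siCtrl 3 and siCtrl 4 alone and -0.23 to -0.0924 without 1 library. Both siRNAs against siH2A.Z1 (4 genes) gave 2 with the block, 2 at a fold above 1.5, 9 in 5 groups, 8 with 4 libraries only and 0 without 1 library. Both against siH2A.Z2 (13 genes) gave 5 at a fold above 1.5, 21 in 5 groups and 2 to 5 without 1 library. The siH2A.Z1 and siH2A.Z2 libraries (18 genes) gave 11 to 13 without 1 library, and the control siRNAs (14 genes) 9 at a fold above 1.5 and 12 to 15. The non-additive term (0 genes) gave 3 with DESeq2, 6 and 17 with siCtrl 3 and siCtrl 4 alone and 0 without 1 library.

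Same-numbered libraries deviated together among the control and single depletions (correlations of their deviations 0.145 to 0.43) and in opposite directions with the combined libraries (-0.40 to -0.11). The labels do not say what a number marks, and with 2 numbers this is a hint from the data only. With the replicate block, H2A.Z.1 depletion gave 19 genes, combined depletion 8 and both siRNAs against siH2A.Z2 11. Crossing the numbers of the combined libraries, chosen after seeing the data, gave 9, 13 and, against siH2A.Z1, 5. With 2 libraries per condition, a lone library left in a group was assumed to vary like the others. ATG9B, CTSS and CTSH had few counts, which limits their precision.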
